A study of Homo sapiens with 12 samples.

Results

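The genes described here are the heat shock proteins and DNAJ proteins of the human genome, taken by symbol from the gene counts of HEK293T cells and their methionine-independent clone R1. Members were all genes whose symbol starts with HSPA, HSPB, HSP90A, DNAJA, DNAJB or DNAJC and a number, with HSPH1, HSPD1 and HSPE1. Left out were the endoplasmic reticulum chaperones HSPA5, DNAJB9, DNAJB11 and DNAJC3, symbols that mark a pseudogene and symbols with a hyphen. Where a symbol had several entries, the entry with the most counts was used. This gave 67 genes among the 23500 rows of the table (19822 distinct symbols): 13 of the HSP70 class, 1 of the HSP110 class by its symbol (HSPH1), 2 of the HSP90 class, 8 small heat shock proteins, the 2 parts of the mitochondrial chaperonin, and 4 DNAJA, 10 DNAJB and 27 DNAJC proteins. The classes follow the symbols, so HSPA4 and HSPA4L, which are HSP110-type proteins, are counted in the HSP70 class. HSPB11, which GENCODE names IFT25, is likewise counted with the small heat shock proteins by its symbol alone. Most work in the cytosol, but the symbols also take in mitochondrial chaperones, among them HSPA9, HSPD1, HSPE1, DNAJA3, DNAJC11, DNAJC15 and DNAJC19. Others belong to the endoplasmic reticulum, among them HSPA13, DNAJC1, DNAJC10, DNAJC14 and DNAJC25, so the set is wider than the cytosolic chaperones. HSPB2 and DNAJB8 had 0 counts in all 12 libraries and HSPB7 had a summed count below 10, which left 64 genes in the tests.

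HEK293T is an immortal line grown from human embryonic kidney, named for the viral T antigen it makes, and the study's methods describe the HEK293T cells it used as carrying an HA-tagged catalytic subunit of the phosphatase PP2A. R1 is a single clone selected from HEK293T cells for growth when homocysteine replaces methionine, so a difference between R1 and HEK293T is a difference between that clone and its parent line. Each line was kept for 12 h in medium with methionine (+Met) or in medium in which homocysteine, the precursor of methionine, replaced it (−Met+Hcy). The 4 groups hold 3 libraries each, made from total RNA. The sample titles name R1, whereas the cell line label reads HEK293T for every sample, and the titles were followed. The comparison of the media in HEK293T asks how cells that need methionine respond to its loss. The same comparison in R1 asks how cells that do not need it respond. R1 against HEK293T in +Met asks how the clone differs after the same 12 h with methionine.

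Chaperones bind unfolded stretches of other proteins and help them fold, assemble or be degraded. HSP70 proteins such as HSPA8 cycle between ATP and ADP while holding a client. DNAJ proteins bring them clients and stimulate their ATPase, and HSP110 proteins such as HSPA4 and HSPH1 exchange their nucleotide. HSP90 proteins complete the folding of kinases, steroid receptors and other clients handed on from HSP70, and HSPD1 with its lid HSPE1 folds imported proteins inside mitochondria. Small heat shock proteins such as HSPB1 hold unfolded proteins without using ATP. The transcription factor HSF1 drives many of these genes when misfolded protein accumulates. It binds heat shock elements, in which the letters GAA and their complement TTC alternate at regular spacing.

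Estimated counts per library summed to between 12664158 and 18771349, and levels are given as CPM, counts scaled to that total. Nothing in the labels states that the 3 libraries of a group came from separate cultures, so the p-values measure the spread between libraries, which may be technical. R1 −Met+Hcy replicate 3 stood apart from the other libraries of its group: chi-square per gene was 205 and 236 between it and the other two, against 7.13 to 90.1 in the other pairs of replicates, so the main R1 −Met+Hcy results are also given without it. R1 +Met replicate 2 came next, at 72.1 and 90.1 against replicates 1 and 3 of its group, which had 7.13 between them. It is part of every comparison that uses R1 +Met. Of the genes taken as markers of HEK293T cells, LIN28B (15.7 to 33.3 CPM) and VIM (305.3 to 834.5 CPM) were present in all libraries and PAX2, a kidney lineage factor, was low, at 0.206 to 1.33 CPM in HEK293T and 2.82 to 6.06 CPM in R1. The epithelial keratin KRT8 stood at 9.79 to 30.6 CPM in HEK293T and 22 to 52.6 CPM in R1. The keratin KRT18 was higher in each R1 library than in each HEK293T library. The neurofilament gene NEFM stood at 19.8 to 72.5 CPM in HEK293T and 7.61 to 20.5 CPM in R1. INA went the other way, at 6.38 to 13.95 and 13.21 to 29.92 CPM. NEFL overlapped between the lines, at 45.72 to 92.63 and 45.87 to 73.93 CPM, so NEFM, INA and NEFL did not move together. Of 6 markers of blood, liver, stromal and endothelial cells, none exceeded 0.823 CPM. The tests used edgeR's quasi-likelihood method in one model of the 4 groups, with TMM scaling of the libraries and Benjamini-Hochberg adjustment over all 17162 genes that passed the count filter. An adjusted p under 0.05 counted as a call. Shares of all genes called were taken for this fit and for the fit without R1 −Met+Hcy replicate 3. Counts under DESeq2 and the other alternatives have no such share beside them. They show only how far the number of calls moved. Scaling to library totals in place of TMM moved the median log2 fold change of all genes from 0.03 to 0.33 for the medium in HEK293T and from 0.02 to 0.37 for R1 against HEK293T in +Met, so CPM ratios and the tests' fold changes differ by about these shifts. The members' median stayed 0.19 and 0.20 below that of all genes in HEK293T under the respective scalings.

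RefSeq promoters (GRCh38.p14, 250 bases before to 50 bases after a gene's start, 1 start per gene) were found for 59 of the 67 members. They were searched for heat shock elements on both strands, as 3 alternating units (GAANNTTC continued by NNGAA) or as pairs (GAANNTTC or TTCNNGAA), with each match of 3 units also holding both pairs. The 3-unit element stood in 4 of the 59 members' promoters (6.78%) and in 0.487% of all 27305 promoters, and a pair stood in 14 (23.7%) and in 13.7%. The 5 promoters below are shown because the 4 with 3 units include 2 genes that were lower in −Met+Hcy in HEK293T (HSPA8 and DNAJA1) and 2 that were not called (DNAJB6 and HSPA6), and because HSPA1B, also lower, holds a pair only. Capitals mark the heat shock pairs and 3-unit elements, and each sequence is written 5′ to 3′ on the gene's own strand.
HSPA8, chr11:123062087-123062386, minus strand: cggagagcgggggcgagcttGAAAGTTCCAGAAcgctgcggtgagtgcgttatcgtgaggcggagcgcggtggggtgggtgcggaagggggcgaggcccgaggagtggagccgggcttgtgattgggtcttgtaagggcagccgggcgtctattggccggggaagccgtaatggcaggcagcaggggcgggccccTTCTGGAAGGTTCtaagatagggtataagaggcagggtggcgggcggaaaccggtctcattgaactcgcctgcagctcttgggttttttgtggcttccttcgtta
DNAJA1, chr9:33025023-33025322, plus strand: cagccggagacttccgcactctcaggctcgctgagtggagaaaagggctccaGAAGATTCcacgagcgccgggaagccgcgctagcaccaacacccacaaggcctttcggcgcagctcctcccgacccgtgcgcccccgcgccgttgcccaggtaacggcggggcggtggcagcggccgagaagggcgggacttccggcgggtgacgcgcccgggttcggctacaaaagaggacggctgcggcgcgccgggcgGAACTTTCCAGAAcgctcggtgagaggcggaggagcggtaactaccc
HSPA1B, chr6:31827488-31827787, plus strand: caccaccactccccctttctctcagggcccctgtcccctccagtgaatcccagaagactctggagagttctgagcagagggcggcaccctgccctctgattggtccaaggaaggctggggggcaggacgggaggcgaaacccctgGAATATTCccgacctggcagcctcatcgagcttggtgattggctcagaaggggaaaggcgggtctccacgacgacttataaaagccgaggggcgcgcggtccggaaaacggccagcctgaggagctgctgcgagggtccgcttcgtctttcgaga
DNAJB6, chr7:157336754-157337053, plus strand: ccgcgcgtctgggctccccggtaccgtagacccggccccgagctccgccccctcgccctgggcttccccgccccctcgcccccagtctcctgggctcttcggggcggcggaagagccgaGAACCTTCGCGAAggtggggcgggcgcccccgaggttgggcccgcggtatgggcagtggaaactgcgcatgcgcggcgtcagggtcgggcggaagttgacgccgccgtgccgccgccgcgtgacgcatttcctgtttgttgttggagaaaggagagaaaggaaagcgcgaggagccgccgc
HSPA6, chr1:161524290-161524589, plus strand: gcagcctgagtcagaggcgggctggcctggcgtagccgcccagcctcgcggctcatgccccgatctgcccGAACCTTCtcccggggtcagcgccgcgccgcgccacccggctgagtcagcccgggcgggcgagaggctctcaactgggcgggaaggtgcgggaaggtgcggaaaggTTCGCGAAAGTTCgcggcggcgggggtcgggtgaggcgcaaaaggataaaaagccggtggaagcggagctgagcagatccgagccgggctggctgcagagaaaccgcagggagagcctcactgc
The HSPA8 window holds 2 such elements, which begin 230 and 55 bases before the gene start, and that of DNAJA1 begins 3 bases after its start. In HSPA1B the pair begins 105 bases before the start. This HSPA1B window belongs to the chromosome 6 entry, whereas the entry tested is a copy from an alternative assembly. The chromosome 6 entry itself held 0, 5 and 0 counts in HEK293T +Met and 0 in each HEK293T −Met+Hcy library.

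In HEK293T cells, the genes that fell in −Met+Hcy included the main constitutive cytosolic HSP70 and both cytosolic HSP90 genes. They also included the HSP110-type nucleotide exchange factors HSPA4 and HSPH1, the J protein DNAJA1 and both parts of the mitochondrial chaperonin. Of the 64 members tested, 10 were lower (2.78% of all genes tested were lower) and 1 was higher (4.25% of all genes), by the edgeR quasi-likelihood test, Benjamini-Hochberg adjusted. At a change of more than 2-fold as well, 7 were lower and 0 higher, against 1.59% and 3.04% of all genes. Scaled to library totals, the groups did not overlap for 14 members lower and 21 higher, against 9.8% and 38.6% of all genes. DESeq2 called 10 lower and 2 higher. At an unadjusted p under 0.05 by edgeR there were 12 lower and 6 higher, against 1629 and 2209 of all 17162 genes. The median log2 fold change of the tested members was -0.16, against 0.03 for all genes tested, and it was -0.10 with the 5 members that had no more than 3 counts in a group placed at that floor. With library totals in place of TMM, 7 members were lower and 2 higher.

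The counts of HSPA8 dropped from 55342, 58530 and 65090 in the 3 HEK293T +Met libraries to 11358, 18345 and 16130 in the 3 −Met+Hcy libraries. All members together held 1.51%, 1.70% and 1.47% of the counts in HEK293T +Met and 0.916%, 0.930% and 0.857% in −Met+Hcy. The groups did not overlap, and the means were 1.56% ± 0.123 and 0.901% ± 0.0386 (SD, n = 3). Without HSPA8 the means were 1.18% ± 0.114 and 0.803% ± 0.0457. The HSP70 class went from 0.612% ± 0.0289 to 0.246% ± 0.0130 and the HSP90 class from 0.531% ± 0.0767 to 0.329% ± 0.0252. The DNAJC class held 0.107% ± 0.00916 and 0.119% ± 0.00867. In R1 all members held 1.82% ± 0.0430 in +Met and 1.71% ± 0.276 in −Met+Hcy, the latter 1.56% without replicate 3. These shares take 1 entry per gene, are of counts not corrected for transcript length, and carry no test. Over all entries of each symbol, the members held 1.62%, 1.83% and 1.58% in HEK293T +Met and 0.967%, 0.981% and 0.906% in −Met+Hcy. In bulk RNA, fewer cells with a transcript and less of it per cell cannot be told apart.

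**Figure D1:**
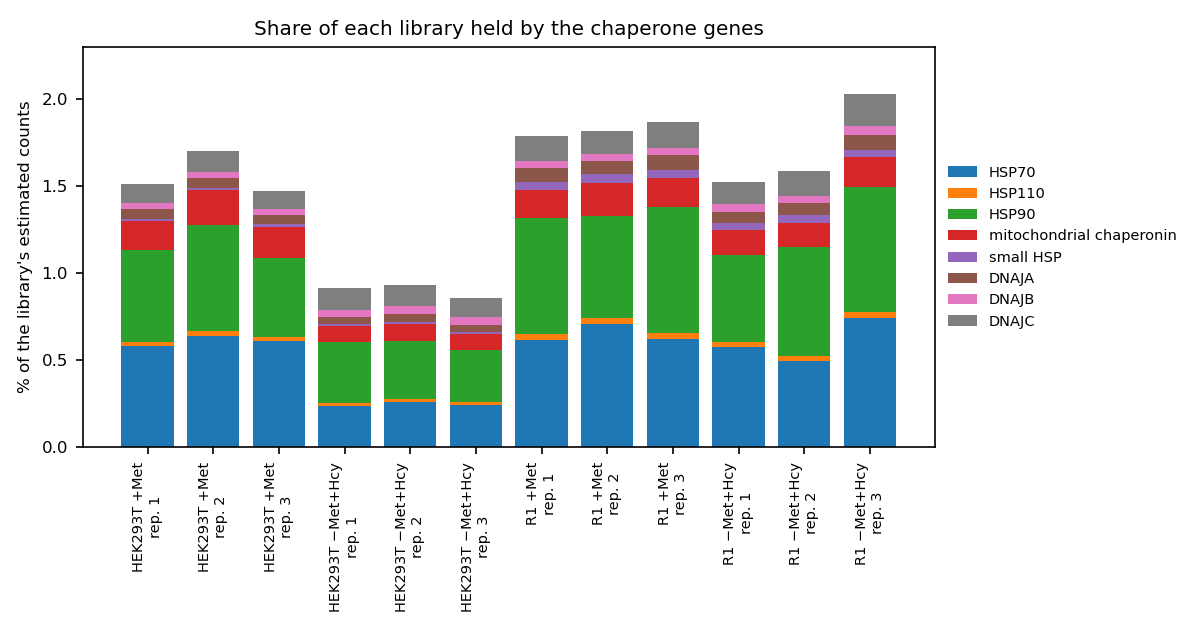
Percent of each library's estimated counts held by the chaperone genes, 1 entry per gene (y axis), stacked by class, in the 12 libraries (x axis, 3 per group). The 3 HEK293T −Met+Hcy libraries sit between 0.857% and 0.930%, below the other 9 libraries, which start at 1.47%.

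Among the HSP70 proteins, HSPA8, the constitutive cytosolic member that folds new proteins and uncoats clathrin vesicles, had the largest decrease of the called genes. Its level was 3463, 4009 and 3984 CPM in HEK293T +Met and 796, 1078 and 1061 CPM in −Met+Hcy. All 3 −Met+Hcy libraries lay below every other library of the series. HSPA8 fell by 2.25 on the log2 scale (SE 0.282, adjusted p = 0.00139, the edgeR quasi-likelihood test, Benjamini-Hochberg adjusted).

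HSPA4, an HSP110-type exchange factor, stood at 529, 595 and 516 CPM in HEK293T +Met and at 218, 233 and 213 CPM in −Met+Hcy. Here too no −Met+Hcy library of HEK293T reached any other library, the lowest of which was at 432 CPM. The log2 fold change was -1.60 (SE 0.228, adjusted p = 0.00278, the edgeR quasi-likelihood test, Benjamini-Hochberg adjusted). HSPH1, the other cytosolic exchange factor of this type, stood at 226, 275 and 215 CPM in +Met and at 180, 164 and 158 CPM in −Met+Hcy. The groups did not overlap, but the change was smaller, at -0.81 (SE 0.196, adjusted p = 0.0292 by the same edgeR test). HSPA4L, a close relative of HSPA4, was not called (-0.35, SE 0.294).

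HSPA1A and HSPA1B are the stress-inducible HSP70 genes and encode nearly identical proteins, and the table holds 5 entries of each, copies from the alternative assemblies of the HLA region. The quantification split reads between them, so their separate values are uncertain. The HSPA1B entry used stood at 1040, 966 and 763 CPM in HEK293T +Met and at 353, 311 and 193 CPM in −Met+Hcy. It fell, with a log2 fold change of -2.0 (SE 0.503, adjusted p = 0.0338, the edgeR quasi-likelihood test, Benjamini-Hochberg adjusted). Summed over all entries of both genes, the level was 1961, 2037 and 1630 CPM in +Met and 697, 625 and 480 CPM in −Met+Hcy, again without overlap. As 1 row, an alternative added after the data were seen, both genes had a log2 fold change of -1.95 (adjusted p = 0.00545 by the same edgeR test). The HSPA1A entry alone held only 2.57, 4.18 and 3.12 CPM in +Met and was not called (-1.71, SE 0.802). With library totals in place of TMM, HSPA1B was not called.

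Several HSP70 proteins did not pass the test in HEK293T. HSPA9, the HSP70 of the mitochondrial matrix, stood at 453, 473 and 385 CPM in +Met and at 619, 562 and 475 CPM in −Met+Hcy, and its log2 fold change on the TMM scale was 0.04 with a 95% interval from -0.44 to 0.52. HSPA6, an HSP70 that is silent until cells are stressed, stayed between 0.438 and 1.12 CPM in all 6 HEK293T libraries. HSPA13, of the endoplasmic reticulum, had 0.60 (SE 0.362).

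HSP90AA1 and HSP90AB1 are the inducible and the constitutive cytosolic HSP90. HSP90AA1 stood at 2862, 3517 and 2613 CPM in HEK293T +Met and at 1946, 1795 and 1635 CPM in −Met+Hcy, and its log2 fold change was -1.04 (SE 0.243, adjusted p = 0.0254, the edgeR quasi-likelihood test, Benjamini-Hochberg adjusted). HSP90AB1 stood at 2414, 2580 and 1950 CPM and at 1552, 1555 and 1372 CPM, a log2 fold change of -0.93 (SE 0.189, adjusted p = 0.0138 by the same edgeR test). For both genes each −Met+Hcy library lay below each +Met library.

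The 2 parts of the mitochondrial chaperonin fell as well. HSPD1, which forms the folding chamber, stood at 1274, 1645 and 1415 CPM in HEK293T +Met and at 793, 809 and 731 CPM in −Met+Hcy. Its log2 fold change was -1.18 (SE 0.184, adjusted p = 0.00407, the edgeR quasi-likelihood test, Benjamini-Hochberg adjusted). HSPE1, the lid, stood at 371, 322 and 390 CPM in +Met and at 129, 150 and 168 CPM in −Met+Hcy. The change was -1.57 (SE 0.321, adjusted p = 0.0141 by the same edgeR test). The genes lie head to head on chromosome 2, with RefSeq starts 105 bases apart on opposite strands. Neither of their overlapping promoter windows held a heat shock pair.

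Of the 4 DNAJA proteins 1 fell, of the 9 DNAJB proteins tested none was called, and of the 27 DNAJC proteins 1 fell and 1 rose. DNAJA1, a farnesylated partner of cytosolic HSP70, stood at 360, 385 and 297 CPM in HEK293T +Met and at 207, 208 and 163 CPM in −Met+Hcy. It fell by 1.15 on the log2 scale (SE 0.225, adjusted p = 0.0118, the edgeR quasi-likelihood test, Benjamini-Hochberg adjusted). DNAJB1, the stress-inducible partner of HSP70, moved differently from DNAJA1. Its level was 115, 113 and 116 CPM in +Met and 134, 161 and 144 CPM in −Met+Hcy, higher in each −Met+Hcy library when scaled to library totals. On the TMM scale its log2 fold change was 0.06, with a 95% interval from -0.36 to 0.47.

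DNAJC14, an endoplasmic reticulum membrane J protein, was the 1 member that rose, from 44.8, 53.0 and 43.1 CPM to 121, 102 and 83.5 CPM. The log2 fold change was 0.83 (SE 0.208, adjusted p = 0.0338, the edgeR quasi-likelihood test, Benjamini-Hochberg adjusted). DNAJC11, of the mitochondrial membranes, is named after its values were seen because it is the remaining called member. It stood at 77.6, 72.2 and 56.7 CPM in +Met and at 59.0, 47.9 and 37.4 CPM in −Met+Hcy, which overlap, and its log2 fold change was -0.82 (adjusted p = 0.0404 by the same edgeR test). No gene of the small heat shock protein class was called. HSPB1 stood at 65.9, 43.8 and 53.3 CPM in +Met and at 51.8, 56.9 and 54.4 CPM in −Met+Hcy, and its log2 fold change was -0.30 with a 95% interval from -0.71 to 0.11.

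**Figure D2:**
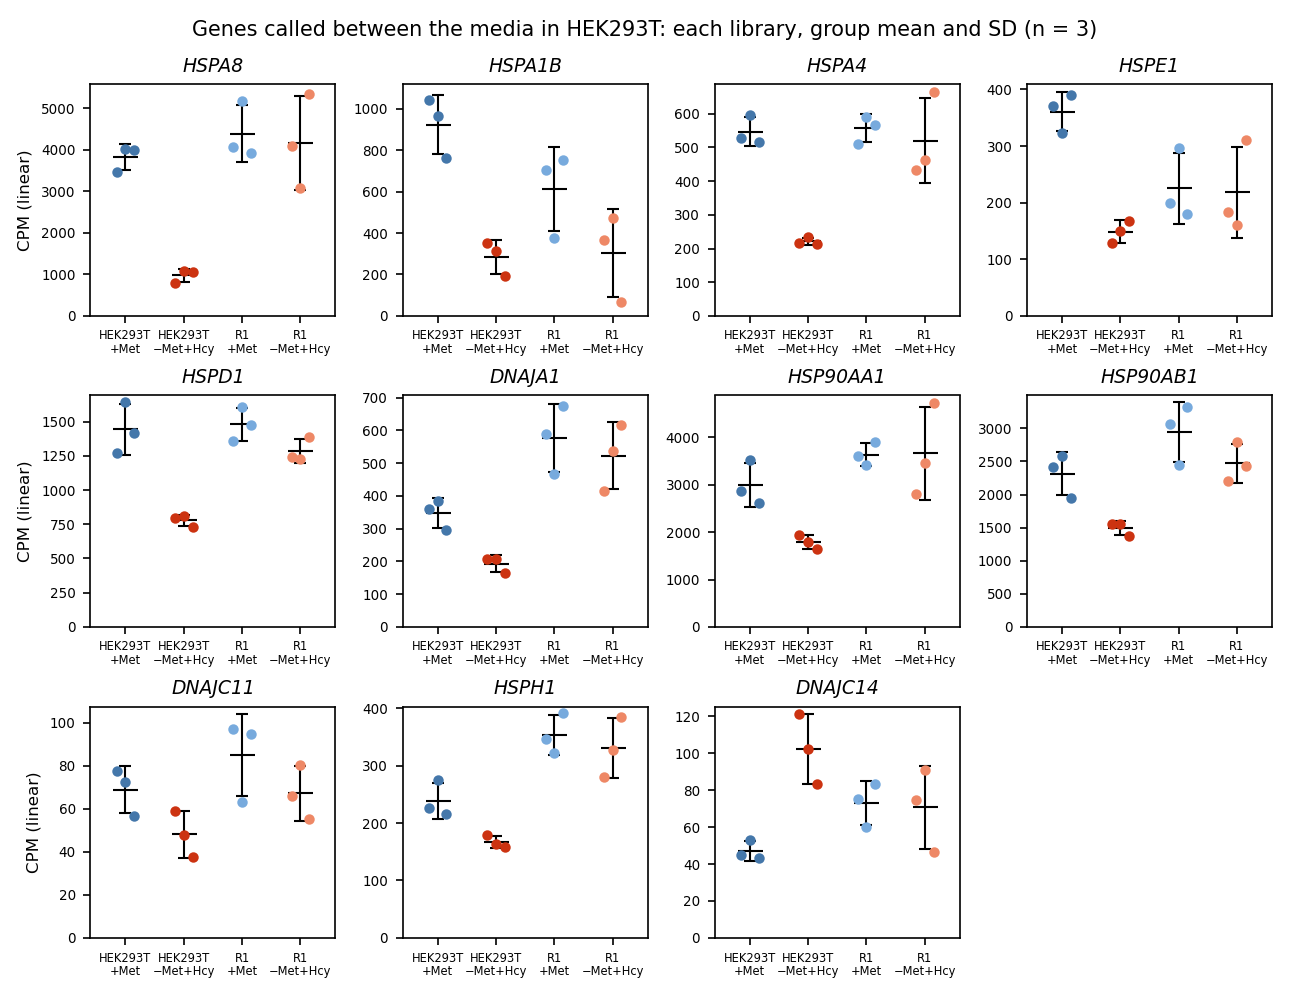
Level in CPM of library totals (y axis, linear, from 0) of the 11 genes called between the media in HEK293T, with 1 panel per gene, 1 point per library and black bars for the group mean and SD (n = 3). For HSPA8, HSPA4 and HSPD1 the 3 HEK293T −Met+Hcy points lie below all 9 others, and for DNAJC11 the points of the HEK293T groups overlap.

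Heat shock pairs were found in promoters of called and of not-called genes. A heat shock pair stood in the promoters of 3 of the 10 genes that fell (30.0%: HSPA8, DNAJA1 and HSPA1B) and in 11 of the 46 tested and not called (23.9%). The 11 include HSPA1A and HSPA1L, whose windows overlap on opposite strands and share the same GAATATTC site, so that site is counted for both. HSPA1A is placed here by its own entry, whereas as 1 row with HSPA1B it was called lower. Of the not-called genes with a 3-unit element, DNAJB6, a J protein that keeps aggregation-prone proteins soluble, had a log2 fold change of -0.04 (SE 0.239). The C/EBP-ATF element TGATGNAA stood in 1 member's promoter, that of HSPA4L, and in 3.67% of all promoters. These counts describe letters in 1 window per gene and carry no test.

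How far the calls rest on single libraries differed between genes. HSPA8, HSPA4 and HSPD1 were called lower in HEK293T with each of the 12 libraries of the series left out in turn. DNAJA1 was called in 9 of those 12 fits, HSPE1 in 8, HSP90AB1 in 7, HSP90AA1 in 6, HSPA1B, HSPH1 and DNAJC14 in 5 each and DNAJC11 in 4, with the same direction throughout. When R1 −Met+Hcy replicate 3 was left out of the shared estimate of the spread, 16 members were lower and 7 higher, when 12.5% of all genes were lower and 15.2% higher. Without HEK293T +Met replicate 1, 2 or 3 the number lower was 3, 5 and 5, and without HEK293T −Met+Hcy replicate 1, 2 or 3 it was 4, 3 and 4, with 0 higher in each. Without R1 +Met replicate 1 there were 7 lower and 0 higher.

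In R1 cells the same switch of medium gave no called member. Of the 64 tested, 0 were higher and 0 lower by edgeR's quasi-likelihood test (of all genes, 0.00583% were higher and 0% lower), and DESeq2 also called 0. At an unadjusted p under 0.05 by edgeR there were 2 higher and 3 lower, against 974 and 362 of all 17162 genes. Without R1 −Met+Hcy replicate 3 the number called was still 0, against 0.0176% of all genes higher and 0% lower. Scaled to library totals, the groups did not overlap for 3 members higher and 6 lower, against 5.22% and 4.87% of all genes. The members' median log2 fold change was 0.03, against -0.02 for all genes. Only 1 gene of the whole table was called in R1, so the 0 members called are not set apart from the other genes.

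HSPA8 in R1 stood at 4062, 5169 and 3926 CPM in +Met and at 4083, 3081 and 5341 CPM in −Met+Hcy. The groups overlapped fully, with the highest −Met+Hcy value in replicate 3, and the log2 fold change was -0.00 with a 95% interval from -0.59 to 0.58. Without replicate 3 it was -0.34 (SE 0.216). HSPA4 stood at 511, 592 and 567 CPM in +Met and at 432, 463 and 664 CPM in −Met+Hcy, with a log2 fold change of -0.03, and -0.36 without replicate 3 (SE 0.141, adjusted p = 0.612, the edgeR quasi-likelihood test, Benjamini-Hochberg adjusted). In the 2 other −Met+Hcy libraries HSPA4 was below all 3 +Met libraries.

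HSPD1 in R1 stood at 1361, 1604 and 1472 CPM in +Met and at 1244, 1230 and 1386 CPM in −Met+Hcy, and the log2 fold change was -0.15 with a 95% interval from -0.54 to 0.25, and -0.30 (SE 0.151) without replicate 3. HSP90AA1 stood at 3609, 3410 and 3894 CPM and at 2800, 3459 and 4729 CPM, a wider spread in −Met+Hcy than in any other group. DNAJA1 stood at 590, 467 and 674 CPM and at 415, 539 and 616 CPM. The HSPA1B entry had the largest difference of the core genes with more than 5 CPM, from 702, 378 and 754 CPM to 368, 474 and 66.2 CPM, with overlap and a log2 fold change of -1.03 (SE 0.490, adjusted p = 0.622, the edgeR quasi-likelihood test, Benjamini-Hochberg adjusted). Without replicate 3, which had the lowest level of this entry in the series, it was -0.57 (SE 0.287). Summed over all entries of HSPA1A and HSPA1B, R1 held 1485, 773 and 1560 CPM in +Met and 740, 1030 and 353 CPM in −Met+Hcy, and as 1 row both genes had -0.84 (adjusted p = 0.630 by the same edgeR test).

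Without R1 −Met+Hcy replicate 3, all 10 genes that fell in HEK293T had a negative log2 fold change in R1, and none was called. Beside HSPA8, HSPA4, HSPD1 and HSPA1B above, it was -0.44 (SE 0.236) for HSPE1, -0.31 (SE 0.184) for DNAJA1 and -0.28 (SE 0.176) for HSP90AB1. HSP90AA1 had -0.26 (SE 0.162), HSPH1 -0.26 (SE 0.144) and DNAJC11 -0.25 (SE 0.213). How many of all genes were negative in R1 in that fit was not counted, so these signs have no share beside them. They also rest on leaving out 1 library, since with all libraries HSP90AA1 and HSPE1 had positive values in R1.

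**Figure D3:**
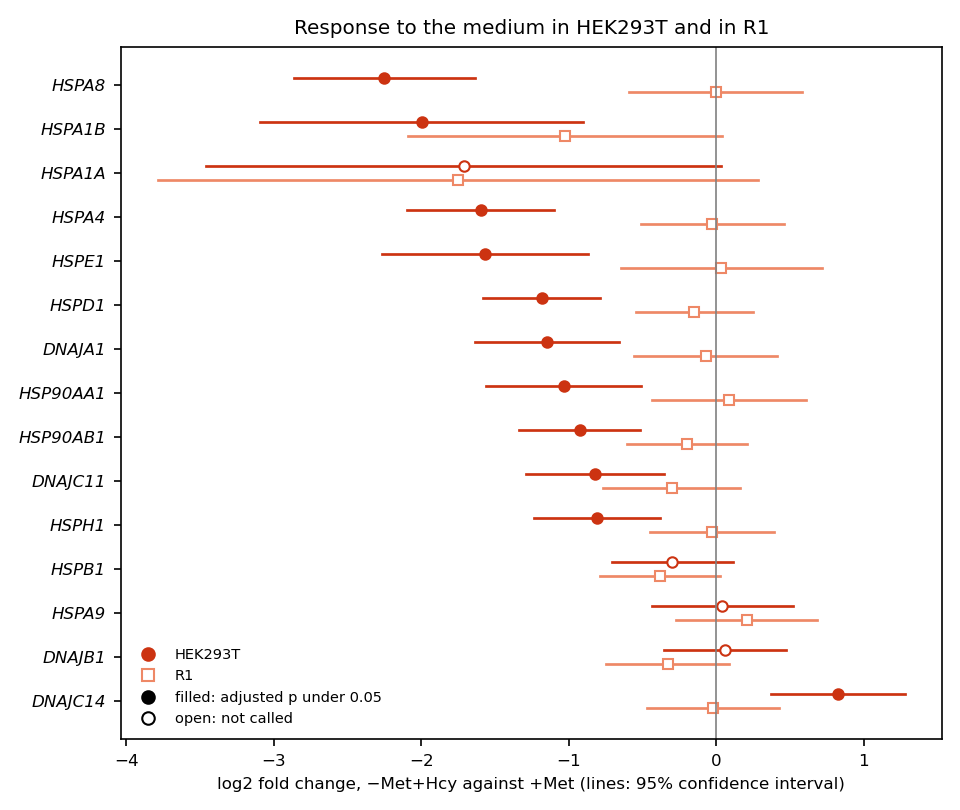
Log2 fold change of −Met+Hcy against +Met (x axis) in HEK293T (circles) and R1 (squares) for the genes called in HEK293T and the core chaperones (y axis), with lines for the 95% interval and filled symbols for an adjusted p under 0.05. HSPA8 has -2.25 in HEK293T and -0.00 in R1, HSPB1 has -0.30 and -0.38, and no R1 symbol is filled.

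Whether the response differed between the lines was tested directly, as the response of R1 minus that of HEK293T. No member was called higher or lower (0% and 0.0583% of all genes by edgeR's quasi-likelihood test). At an unadjusted p under 0.05 by the same test, 8 were higher and 4 lower, against 793 and 866 of all 17162 genes. HSPA8 had the largest positive difference among the core genes, 2.25 on the log2 scale (SE 0.385, 95% interval 1.41 to 3.09), and missed the threshold (adjusted p = 0.0850 by the edgeR quasi-likelihood test, Benjamini-Hochberg adjusted). HSPE1 had a difference of 1.60 (SE 0.446), HSPA4 of 1.57 (SE 0.317), HSP90AA1 of 1.12 (SE 0.341), DNAJA1 of 1.07 (SE 0.315) and HSPD1 of 1.04 (SE 0.257). DNAJC14, the gene that rose in HEK293T, had -0.85 (SE 0.292). The 95% intervals of HSPA9 (-0.51 to 0.84) and HSPB1 (-0.66 to 0.49) held 0.

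The difference test depended on R1 −Met+Hcy replicate 3 and on the tool. Without that library 3 members were called, all with the larger value in R1 (0.398% of all genes), and DESeq2 with all libraries called 4. Those without replicate 3 were HSPA8 at 1.91 (SE 0.286, adjusted p = 0.00856), HSPA4 at 1.24 (SE 0.186, adjusted p = 0.00856) and HSPD1 at 0.88 (SE 0.201, adjusted p = 0.04997), by the edgeR quasi-likelihood test, Benjamini-Hochberg adjusted. HSPD1 lay just under the threshold. The differences of HSPE1 (1.13, SE 0.311), HSP90AA1 (0.78, SE 0.214), DNAJA1 (0.83, SE 0.244) and DNAJC14 (-0.68, SE 0.229) were smaller without that library and not called. With library totals in place of TMM, and all libraries, 1 member was called.

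**Figure D4:**
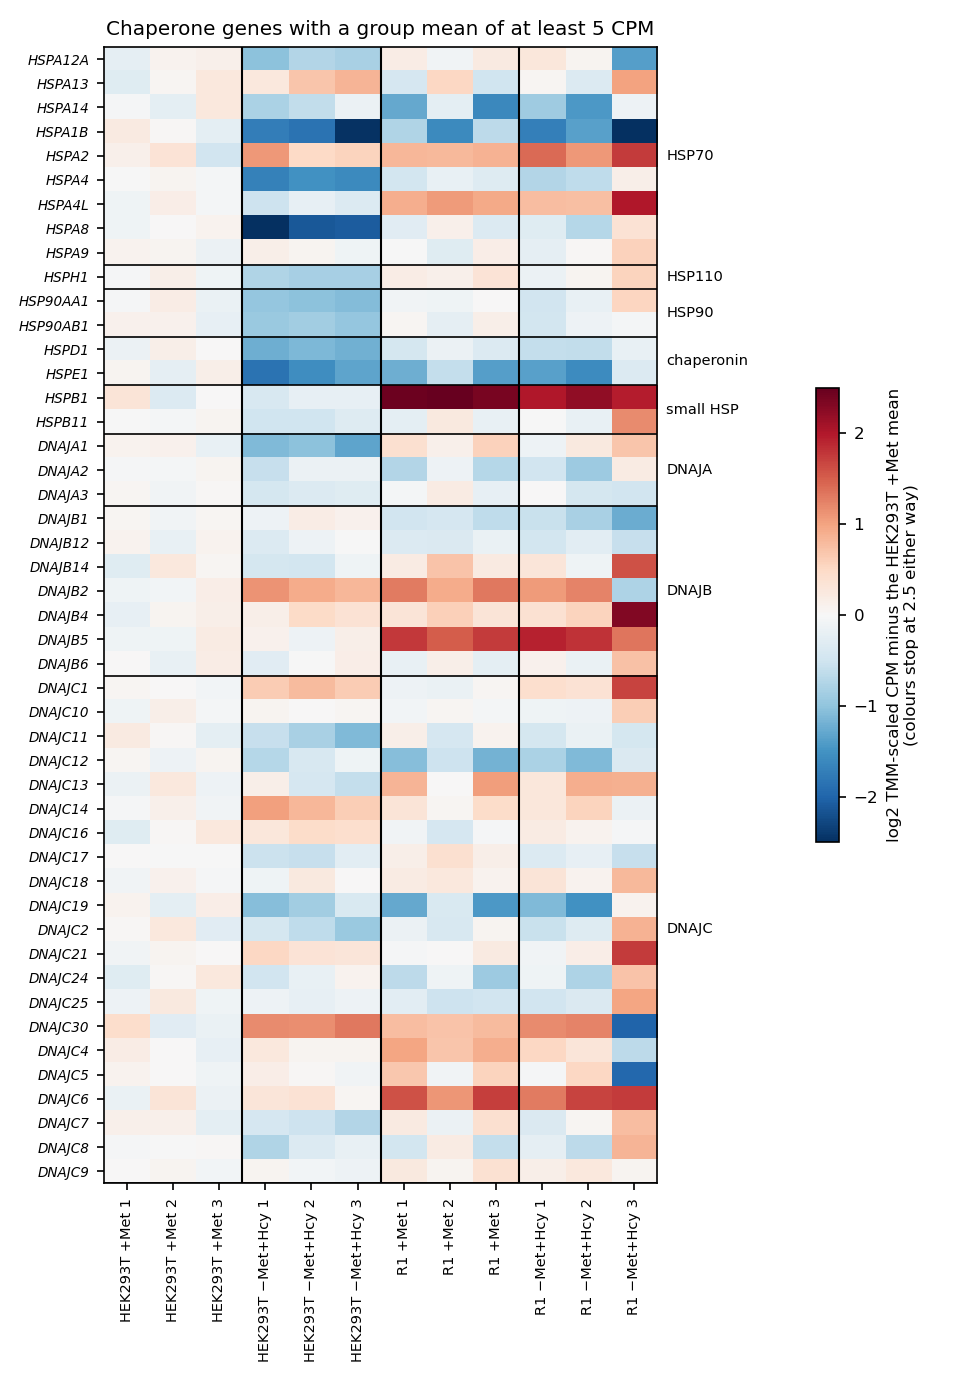
Log2 TMM-scaled CPM of the 47 tested chaperone genes with a group mean of at least 5 CPM (rows, by class) in each library (columns), minus the mean of the HEK293T +Met libraries; red is higher and blue lower, and colours stop at 2.5 either way. HSPA8, HSPA4, HSPD1 and both HSP90 genes are blue in the 3 HEK293T −Met+Hcy columns, HSPB1, DNAJB5 and DNAJC6 are red in all R1 columns, and R1 −Met+Hcy replicate 3 differs from its replicates in many rows.

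In +Met medium, a few chaperones were called between R1 and HEK293T. In the fit of all libraries none of these was among the genes that fell in −Met+Hcy, whereas without R1 −Met+Hcy replicate 3 HSPE1 and HSPA1B were also called lower. Of the 64 tested, 4 were higher in R1 (5.69% of all genes) and 1 lower (4.48%), by the edgeR quasi-likelihood test, Benjamini-Hochberg adjusted. These are 6.25% and 1.56% of the members tested, so the number of calls does not set the members apart from the other genes. Over 2-fold as well, 4 were higher and 0 lower, against 4.71% and 2.95% of all genes. Scaled to library totals, the groups did not overlap for 31 members higher and 6 lower, against 38.1% and 9.15% of all genes. DESeq2 called 8 higher and 4 lower. With library totals in place of TMM, 13 were higher and 0 lower, where the median log2 fold change of all genes was 0.37. The members' median was -0.01, against 0.02 for all genes, and 0.00 with the 4 members at or under the floor of 3 counts in one of the groups placed at the floor and 2 that were so in both left out.

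HSPB1, the small heat shock protein that binds unfolded proteins and actin, had the clearest difference. It stood at 65.9, 43.8 and 53.3 CPM in HEK293T +Met and at 381, 379 and 361 CPM in R1 +Met. In −Met+Hcy it was 51.8, 56.9 and 54.4 CPM in HEK293T and 283, 329 and 229 CPM in R1. Each R1 library lay above each HEK293T library in both media. In +Met, HSPB1 was higher by 2.42 on the log2 scale (SE 0.198, adjusted p = 4.7e-05, the edgeR quasi-likelihood test, Benjamini-Hochberg adjusted).

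DNAJB5, a J protein of the type of DNAJB1, stood at 2.38, 2.53 and 3.00 CPM in HEK293T +Met and at 11.6, 9.34 and 11.5 CPM in R1 +Met, a log2 fold change of 1.68 (SE 0.253, adjusted p = 0.00196 by the same edgeR test). DNAJC6, or auxilin, which recruits HSPA8 to uncoat clathrin vesicles, stood at 10.8, 16 and 10.9 CPM and at 48.1, 33.0 and 52.9 CPM. Its log2 fold change was 1.48 (SE 0.229, adjusted p = 0.00227 by the same edgeR test). Both genes stayed at their R1 levels in −Met+Hcy, with means of 10.9 ± 3.13 CPM for DNAJB5 and 45.9 ± 6.17 CPM for DNAJC6 (SD, n = 3), and neither was called between media in R1.

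DNAJC15, a J protein of the inner mitochondrial membrane, is named after its values were seen, because its level was under the 5 CPM set for naming. It had 3, 0 and 3 counts in HEK293T +Met and 33, 18 and 23 in R1 +Met. The ratio of pooled CPM was 12.0, with an exact 95% interval from 5.25 to 33.7 that covers counting error only. The p from the edgeR quasi-likelihood test after Benjamini-Hochberg adjustment was 0.0158. DNAJC12, which associates with the aromatic amino acid hydroxylases, was the 1 member lower in R1, at 57.2, 54.3 and 58.6 CPM against 35.1, 49.3 and 32.5 CPM (-0.89, SE 0.246, adjusted p = 0.0394 by the same edgeR test).

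**Figure D5:**
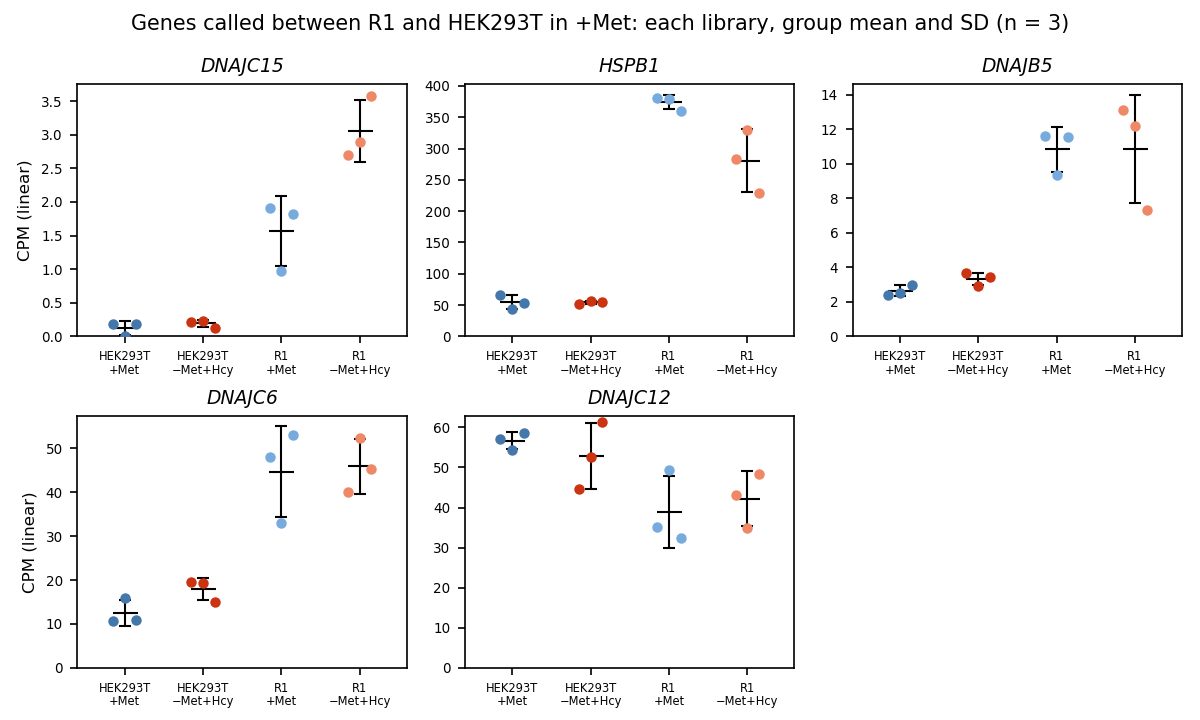
Level in CPM of library totals (y axis, linear, from 0) of the 5 genes called between R1 and HEK293T in +Met, with 1 panel per gene, 1 point per library and black bars for the group mean and SD (n = 3). HSPB1, DNAJB5, DNAJC6 and DNAJC15 are above HEK293T in all 6 R1 libraries, and DNAJC12 is below HEK293T +Met in the 3 R1 +Met libraries.

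Of the genes that fell in HEK293T −Met+Hcy, none was called between the lines in +Met with all libraries. The log2 difference was -0.15 for HSPA8 (95% interval -0.73 to 0.44), -0.07 for HSP90AA1 (-0.59 to 0.45), -0.01 for HSP90AB1 (-0.41 to 0.40), -0.31 for HSPD1 (-0.71 to 0.08), -0.32 for HSPA4 (-0.81 to 0.16) and -0.05 for DNAJC11 (-0.52 to 0.41), all with the other sign when scaled to library totals. DNAJA1 had 0.38 (-0.11 to 0.86) and HSPH1 0.22 (-0.21 to 0.64), and with library totals both were called higher in R1 (0.73 and 0.57). The HSPA1B entry had -0.96 (SE 0.489, adjusted p = 0.240), and 0.0130 was its adjusted p without R1 −Met+Hcy replicate 3, by the edgeR quasi-likelihood test, Benjamini-Hochberg adjusted. HSPE1 stood at 199, 296 and 180 CPM in R1 +Met, below the 3 HEK293T +Met libraries, and missed the threshold (-1.03, SE 0.317, adjusted p = 0.0593, the edgeR quasi-likelihood test, Benjamini-Hochberg adjusted). It passed with DESeq2 (adjusted p = 0.0184) and, by edgeR, without R1 −Met+Hcy replicate 3 (adjusted p = 0.00305), and likewise without replicate 2 of either R1 group, each left out singly. HSPA4L missed it in the other direction, at 38.7, 49.7 and 40.4 CPM in HEK293T and 103, 111 and 107 CPM in R1 (0.97, SE 0.295, adjusted p = 0.0573 by the same edgeR test). HSPB1, DNAJB5 and DNAJC6 were called with any of the 12 libraries left out DNAJC15 in 9 and DNAJC12 in 5 of the 12 fits. Without R1 −Met+Hcy replicate 3 the calls were 13 higher and 9 lower, when 17.1% of all genes were higher and 15.7% lower. Left out singly, each HEK293T +Met replicate, HEK293T −Met+Hcy replicates 2 and 3 and R1 +Met replicates 1 and 3 gave 0 lower, there were 3 lower without R1 +Met replicate 2 or R1 −Met+Hcy replicate 2 and 2 without R1 −Met+Hcy replicate 1.

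A list of 38 co-chaperones, HSP90 partners, nucleotide exchange factors and heat shock factors outside the members, assembled with earlier results of these data known, was followed in the same fits. Of its 37 genes tested, 10 were lower and 3 higher in HEK293T −Met+Hcy, against the 2.78% and 4.25% of all genes given above, and the list's median was -0.50 against 0.03. PTGES3, or p23, the HSP90 partner that stabilises its closed form, went from 486 ± 27.4 to 238 ± 18.1 CPM (SD, n = 3), a log2 fold change of -1.32. FKBP4, an immunophilin bound to HSP90, went from 415 ± 36.4 to 230.3 ± 20.5 CPM (-1.15). PIH1D1, of the R2TP complex that works with HSP90, had -1.11. HSF4, a heat shock factor best known from the lens, had -2.46 at 6.20 ± 2.45 and 1.41 ± 0.988 CPM. The other genes called lower, named after their values were seen, were CACYBP (-1.05), NUDC (-1.05), TRAP1 (-0.96), STIP1 (-0.95), AHSA1 (-0.92) and CDC37 (-0.79), of which STIP1, AHSA1 and CDC37 pass clients to HSP90 or stimulate its ATPase and TRAP1 is the HSP90 of mitochondria.

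The 3 that rose were BAG5 and BAG4, nucleotide exchange factors of HSP70, and GRPEL2, that of mitochondrial HSPA9. BAG5 went from 30.8 ± 6.61 to 98.3 ± 9.60 CPM (1.38), GRPEL2 from 29.2 ± 4.57 to 77.5 ± 13.6 CPM (1.12) and BAG4 from 41.0 ± 3.25 to 98.0 ± 10.1 CPM (0.97). HSF1 itself stood at 52.2 ± 6.51 and 46.5 ± 3.53 CPM and was not called (-0.47, SE 0.306), nor was BAG3, an inducible HSP70 partner (-0.48, SE 0.218). In R1 none of the list was called between media by edgeR's quasi-likelihood test or DESeq2. At an unadjusted p under 0.05 by edgeR, 1 was higher and 3 lower, against 974 and 362 of all 17162 genes. None differed in response between the lines by edgeR, whereas DESeq2 called 2 higher. Unadjusted, edgeR had 11 of the list higher and 2 lower in that difference, against 793 and 866 of all genes. In +Met, SERPINH1, the collagen chaperone HSP47, was higher in R1, at 200.1 ± 17.4 against 50.4 ± 3.67 CPM (1.63), and PIH1D1 (-0.84) and CDC37 (-0.73) were lower.

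Without R1 −Met+Hcy replicate 3, the list had 21 lower and 5 higher in HEK293T, when 12.5% of all genes were lower and 15.2% higher. In the difference between the lines it had 1 higher and 1 lower, against 0.398% and 1.29% of all genes. In R1 against HEK293T in +Met it had 16 lower, against 15.7% of all genes. In HEK293T the number lower was 2, 7 and 7 without +Met replicate 1, 2 and 3, and 3, 1 and 2 without −Met+Hcy replicate 1, 2 and 3, and the number higher was 1 without +Met replicates 1 and 2 or −Met+Hcy replicates 2 and 3, each left out singly. In R1 against HEK293T in +Met it was 0 with HEK293T +Met or R1 +Met replicate 1 or 3 left out, 7 without R1 +Met replicate 2 and 1 without the remaining HEK293T libraries in turn. PTGES3, BAG5 and SERPINH1 were called in all 12 fits that left out 1 library.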

How the data were processed

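Gene-level estimated counts of 12 libraries were used as deposited. Per the study's methods, the authors quantified reads with kallisto v0.48.0 against GRCh38 and summarised the transcript estimates by Ensembl gene, and the deposited estimated counts are whole numbers. They are not corrected for length, and kallisto splits reads shared by near-identical genes. Rows with an Ensembl identifier but no symbol (868, 0.346 to 0.402% of counts) were left out of the members but kept in the fits. All per-sample columns were mapped to a sample.

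Genes with a summed count of at least 10 were fitted with edgeR 4.0.16 (R 4.3.3) by the quasi-likelihood method with TMM factors and 4 group means, leaving 8 residual degrees of freedom. Calls used a Benjamini-Hochberg adjusted p under 0.05. The authors used DESeq2, which was the alternative here (version 1.42.0). Other alternatives were RLE scaling, library totals, filterByExpr, no filter, a change over 2-fold, entries of a symbol summed, a replicate block, the compared libraries alone, and each library left out in turn. The fitting steps were tested on simulated data. Depth was 12664158 to 18771349 counts per library.

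Members, lists and tests were chosen with earlier results of these data known. Named genes were 12 core chaperones, up to 6 called members per direction and comparison with a group mean of at least 5 CPM, and up to 4 called list genes per direction. Gene positions were read from GENCODE release 44 (65 of 67 identifiers matched) and promoters from RefSeq GRCh38.p14.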

Additional observations from a re-analysis of the deposited data

How the results depend on the processing

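Members called lower in HEK293T −Met+Hcy (10) became 6 with the replicate block and 18 when only the HEK293T libraries were fitted, and 3 to 16 with 1 library left out; those called higher (1) became 2 with DESeq2, 2 with library totals alone, 0 over 2-fold, 0 with the replicate block, 8 with the HEK293T libraries alone and 0 to 7 with 1 library left out. In R1 the count stayed 0 under every alternative run. For the difference between the lines, members called higher (0) became 4 with DESeq2, 1 with library totals alone and 0 to 3 with 1 library left out. For R1 against HEK293T in +Met, members higher (4) became 8 with DESeq2, 13 with library totals alone, 12 with the compared libraries alone and 3 to 13 with 1 library left out, and those lower (1) became 4, 0 and 6 in that order, 0 over 2-fold, 0 with the replicate block and 0 to 9 with 1 library left out. Of the co-chaperone list, 3 higher in HEK293T became 1 with the block, 5 with the compared libraries alone and 1 to 5 with 1 left out; 10 lower became 6 with library totals alone, 6 over 2-fold, 22 with the compared libraries alone and 1 to 21 with 1 left out. In R1 against HEK293T, 1 list gene higher became 2 with library totals alone, and 2 lower became 5 with DESeq2, 0 with library totals alone, 0 over 2-fold, 1 with the block, 12 with the compared libraries alone and 0 to 16 with 1 left out; in the difference between the lines, 0 higher became 2 with DESeq2 and 0 to 1 with 1 left out, and 0 lower 0 to 1. The fits of the compared libraries alone have fewer samples and their own estimate of the spread; the cause of the other moves was not tested. RLE scaling, filterByExpr, no filter and summed entries kept every member count within 1.5 times.

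The labels do not state that libraries with the same replicate number were paired. Over 11639 genes, same-numbered libraries of the media had correlations of deviations of -0.000, -0.065 and 0.48 in HEK293T and of 0.074, -0.468 and -0.090 in R1. Libraries with other numbers had values from -0.515 to 0.488. With 3 libraries per group these values cannot settle whether cultures or handling were shared, so the replicate block was kept as an alternative only.

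Of 1315 values of named genes under alternatives, 1146 kept their direction and side of the threshold, 100 lost the threshold, 25 passed it and 44 changed sign; all 44 were of genes not called. With library totals alone the sign changed for HSPB1 in HEK293T (0.000556), HSPE1 in R1 (-0.0449), HSPA9 in the difference (-0.20) and, in R1 against HEK293T, HSPA8 (0.20), HSPA9 (0.32), HSP90AA1 (0.28), HSP90AB1 (0.35) and HSPD1 (0.0341). HSPA8 in R1 was 0.00536 with both DESeq2 and RLE scaling and 0.00407 with filterByExpr, HSPE1 in R1 was -0.0344 with the replicate block, HSPA1A in the difference was 0.79 with entries summed, and HSP90AB1 in R1 against HEK293T was 0.016 with the compared libraries alone. Leaving out 1 library, values ran from -0.013 to 0.14 for DNAJB1 and -0.032 to 0.12 for HSPA9 in HEK293T; in R1 from -0.31 to 0.11 for DNAJA1, -0.26 to 0.28 for HSP90AA1, -0.34 to 0.21 for HSPA8, -0.058 to 0.37 for HSPA9, -0.44 to 0.31 for HSPE1 and -0.26 to 0.12 for HSPH1; in the difference from -2.44 to 0.72 for HSPA1A, -0.099 to 0.33 for HSPA9 and -0.27 to 0.072 for HSPB1; and in R1 against HEK293T from -0.15 to 0.027 for HSP90AA1, -0.10 to 0.092 for HSP90AB1 and -0.15 to 0.076 for HSPA9. Depth limits the members under 5 CPM, whose counts are too few for small differences to be detectable.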

Other observations

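A few members had values on the same side in both lines without passing the test, and they are named after their values were seen. DNAJC1, a J protein of the endoplasmic reticulum, stood at 39.5, 41.1 and 36.7 CPM in HEK293T +Met and at 77.8, 82.7 and 71.5 CPM in −Met+Hcy, and in R1 at 46.3, 43.3 and 52.9 CPM and at 68.4, 66.7 and 138 CPM. In neither line did the groups overlap. The log2 fold changes were 0.69 in HEK293T (SE 0.297, adjusted p = 0.193) and 1.03 in R1 (SE 0.298, adjusted p = 0.622) by the edgeR quasi-likelihood test, Benjamini-Hochberg adjusted, so neither was called with all libraries. Without R1 −Met+Hcy replicate 3, DNAJC1 was called higher in HEK293T (adjusted p = 0.00109 by the same edgeR test) and its R1 value was 0.47 (SE 0.127), not called. HSPA2, an HSP70 gene best known from the testis, had means of 3.25 ± 0.993 and 6.49 ± 1.79 CPM in HEK293T and of 7.20 ± 0.331 and 10.6 ± 1.47 CPM in R1 (SD, n = 3), in +Met and −Met+Hcy respectively. It was not called in either line with all libraries, and was called higher in HEK293T without R1 −Met+Hcy replicate 3 (adjusted p = 0.0453 by the same edgeR test). DNAJC17, a J protein linked to splicing, was on the lower side in both lines, at 10.7, 11.2 and 10.6 CPM in +Met and 9.61, 8.93 and 10.5 CPM in −Met+Hcy in HEK293T, and at 15.5, 17.8 and 15.6 CPM and 11.2, 12.5 and 7.94 CPM in R1. The groups did not overlap in either line. The log2 fold changes were -0.45 (SE 0.200, adjusted p = 0.209) and -0.61 (SE 0.200, adjusted p = 0.622) by the same edgeR test, so neither was called with all libraries. Without R1 −Met+Hcy replicate 3 it was called lower in HEK293T (adjusted p = 0.0357) and stood at -0.51 in R1, not called.

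R1 −Met+Hcy replicate 3 departed from its replicates in both directions among the members. Over all entries of HSPA1A and HSPA1B it held 353 CPM against 740 and 1030 CPM in replicates 1 and 2. The HSPA1B entry used held 66.2 CPM against 368 and 474 CPM, a wider gap, while another HSPA1B entry had 4291 counts against 1577 and 3105. Replicate 3 also held 5.43 CPM of DNAJB2 against 23.3 and 26.6 CPM, and 53.4 CPM of DNAJB1 against 103 and 86.7 CPM, whereas HSPA4L was at 188 CPM against 95.5 and 95 CPM and DNAJC1 at 138 CPM against 68.4 and 66.7 CPM. No member was called between media in R1 with or without this library.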
